A study of Arabidopsis thaliana with 16 samples.

Results

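Cysteine-rich receptor-like kinases (CRKs) and receptor-like proteins (RLPs) are families of plant plasma membrane proteins, and the results below describe where the nuclear protein ENAP1 lay along their genes in Arabidopsis thaliana. The members were all nuclear protein-coding genes whose symbol is CRK or RLP followed by digits, 40 CRK and 52 RLP genes, together 92 of 27444 nuclear protein-coding genes in the gene table used. ENAP1 interacts with EIN2, the membrane protein that passes the ethylene signal to the nucleus. Chromatin immunoprecipitation and sequencing with an antibody against green fluorescent protein was done on whole seedlings kept in the dark for 3 days at 24 C. The 4 conditions were Col-0, the wild-type accession, and the ethylene-insensitive mutant ein2, each after 4 hours of clean air or of air with 10 ppm ethylene, and each with 2 immunoprecipitated and 2 input samples. The ein2 allele and the tag and promoter of the ENAP1 transgene are not given in the labels, and whether replicates came from separate plantings is not stated. No immunoprecipitation from plants without tagged ENAP1 was analysed here, so signal of the antibody without ENAP1 cannot be told apart from binding.

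A CRK carries cysteine-rich domains outside the cell, a membrane-spanning segment and a protein kinase inside the cell. Many CRK genes respond to pathogens, salicylic acid, ozone or salt, and several members have been linked to reactive oxygen signalling and cell death. An RLP has an extracellular domain, usually of leucine-rich repeats, but no kinase of its own. RLPs of immunity bind pieces of microbes and signal through the receptor kinase SOBIR1 with the co-receptor BAK1, whereas other RLPs act in development. Both families are rich in tandem copies.

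The label held for 38 of the 40 CRK genes, whose synonyms in the gene table name a cysteine-rich receptor-like kinase. The other 2, CRK1 (AT2G41140) and CRK3 (AT2G46700), are named there as kinases related to calcium-dependent protein kinases, which are not receptors. The symbol CRK3 also belongs to a true cysteine-rich receptor kinase gene, AT1G70530. All 52 RLP genes are named as receptor-like proteins. Another 2 RLP symbols, RLP18 and RLP49, belong to transcribed pseudogenes and were no members.

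Each condition has 1 deposited peak set for both replicates. It held 7852 regions in Col-0 air, 5137 with ethylene, 3252 in ein2 air and 4696 with ethylene. Neither replicate spread nor read depth is known here, so differences between conditions are described without a test. The weakest region kept had a −log10 q of 13.4, 10.8, 10.9 and 6.57 in these sets, so a gene missing from one set may have signal under that set's own minimum. A gene was counted as having a region if a region overlapped its span with 1000 bp on each side. Fold is the authors' own enrichment over the local background at the summit, the highest point of a region, and is ranked only within a set.

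Few CRK genes had an ENAP1 region. In Col-0 air 7 of 40 CRK genes did, or 17.5% (Wilson 95% interval 8.75 to 31.9), where 35.5% of all protein-coding genes did. Col-0 ethylene had a region at 4 CRK genes, 10.0% (3.96 to 23.1), beside 26.2% of all genes. In ein2 air the count was 2, or 5.0% (1.38 to 16.5), beside 16.9%. It was 1 in ein2 ethylene, 2.5% (0.443 to 12.9), beside 22.4%. The CRK share was thus below that of all genes in each of the 4 sets. In each set the upper end of the interval also lay below the share of all genes. These intervals cover counting error only, and genes of a cluster are not independent draws.

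RLP genes lay between the CRK genes and the average gene. A region was found at 13 of 52 RLP genes in Col-0 air, or 25% (Wilson 95% interval 15.2 to 38.2). The counts were 10 in Col-0 ethylene, 19.2% (10.8 to 31.9), and 5 in ein2 air, 9.62% (4.18 to 20.6). In ein2 ethylene 9 RLP genes had a region, 17.3% (9.38 to 29.7). Each of these shares was below the share of all genes in its set, but all 4 intervals include that share when it is not weighted by gene length.

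**Figure D1:**
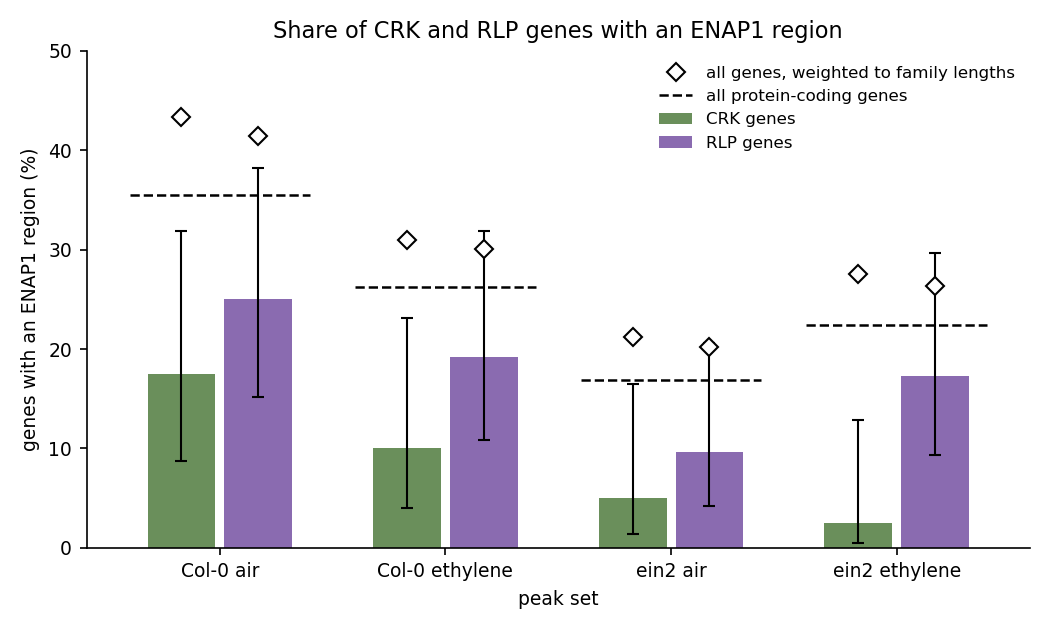
Percent of CRK genes (green) and RLP genes (purple) with an ENAP1 region within 1000 bp in each of the 4 peak sets, with Wilson 95% intervals as error bars. The dashed line is the share of all protein-coding genes and the diamond that share weighted to the family's gene lengths, and all 8 bars end below both.

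Gene length moved the comparison away from equality. The median gene length was 2958 bp for CRK and 2808 bp for RLP genes, against 2078 bp for all protein-coding genes, and longer genes have more chances to meet a region. When the share of all genes was weighted to each family's spread over 10 length classes, it came for the CRK lengths to 43.3% and 31.0% in the Col-0 air and ethylene sets and to 21.2% and 27.5% in those of ein2. That is 17.3, 12.4, 8.48 and 11 genes, where 7, 4, 2 and 1 were found. The values for the RLP lengths were 41.4%, 30.1%, 20.2% and 26.3%, or 21.5, 15.7, 10.5 and 13.7 genes, where 13, 10, 5 and 9 were found. The RLP interval in Col-0 air, 15.2 to 38.2, lay below its weighted share, while the RLP intervals of the other sets included theirs. Of the CRK genes 34 lie on chromosome 4, whose genes as a whole had a region in 33.8%, 25%, 15.9% and 21.6% of cases in the same order of sets.

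Over the 4 sets together, 9 CRK and 14 RLP genes had a region in at least 1 set, which is 22.5% and 26.9%, beside 39.7% of all genes. The other 69 members had none in any set. A region in all 4 sets was found at 1 CRK gene (2.5%) and at 4 RLP genes (7.69%), beside 12.8% of all genes. Many of these regions did not peak in the member itself. Each region was also given to the gene that held its summit or, failing that, to the nearest protein-coding gene within 1000 bp. By this rule 5 CRK genes (12.5%) and 8 RLP genes (15.4%) were given a region in any set, beside 27.9% of all genes. The other 10 of the 23 members had only regions that belonged to a neighbour or to no gene.

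**Figure D2:**
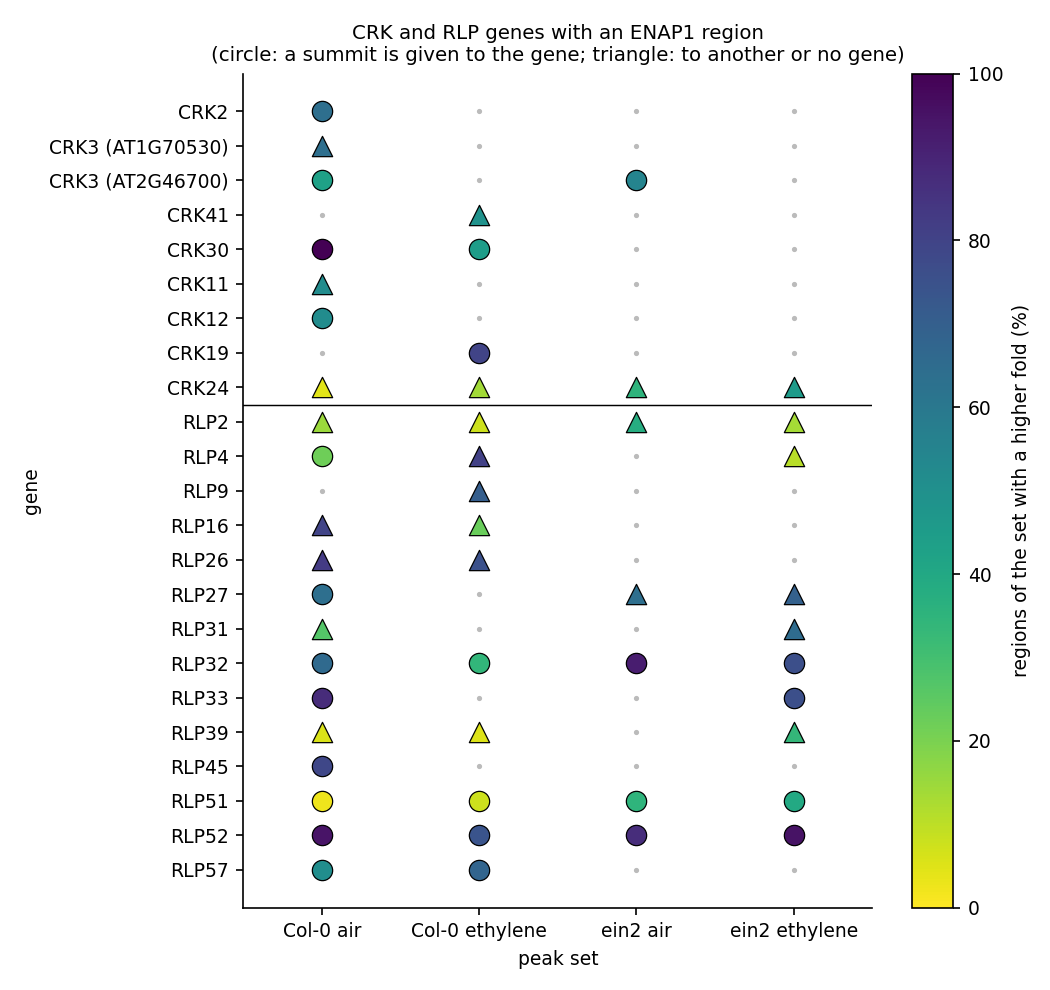
The 23 members with a region in at least 1 set (rows) in the 4 peak sets (columns), 9 CRK genes above the line and 14 RLP genes below it. Circles mark genes given the summit of at least 1 region, triangles regions given to another or no gene, and colour gives the percent of the set's regions with a higher fold than the member's strongest region. RLP51 is the brightest circle, while CRK24, RLP2 and RLP39 are triangles.

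The CRK region that recurred in all 4 sets lay at CRK24 (AT4G23320), the last gene of the largest CRK cluster. It spanned 12191942 to 12192275 of chromosome 4 in Col-0 air (TAIR10). Its fold was 8.33, exceeded by 4.56% of that set. With ethylene the fold in Col-0 was 5.48, and in ein2 it was 4.11 in air and 2.77 with ethylene. In the same order of sets, the summit was 437, 410, 436 and 428 bp beyond the end of CRK24 and inside the adjoining gene AT4G23330, so the region belongs to the neighbour by its summit in every set.

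Of the regions given to a CRK gene by the summit, the one of highest fold in Col-0 air was at the calcium-dependent-kinase relative CRK3 (AT2G46700). Its region spanned 19186570 to 19187233 of chromosome 2 in the Col-0 air set, where its fold was 4.58 and its summit 132 bp inside the gene. In ein2 air the region spanned 19186543 to 19186899 with a fold of 3.57. Both summits were thus close to the same gene edge, and neither ethylene set had a region there.

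Among the true receptor kinases, CRK2 (AT1G70520), which has been linked to reactive oxygen production and salt tolerance, had a region in Col-0 air alone. It spanned 26587372 to 26587896 of chromosome 1 and had a fold of 3.93, with the summit 46 bp outside the gene. The same region lay 495 bp from the adjacent gene CRK3 (AT1G70530) and gave that gene its only count. CRK12 (AT4G23200) likewise had a region in Col-0 air alone, at 12144824 to 12145048 of chromosome 4, where the fold was 4.30 and the summit 87 bp outside the gene. That region also reached the flank of CRK11 (AT4G23190), 966 bp away. The 4 CRK genes found in Col-0 air alone therefore rest on 2 regions.

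CRK30 (AT4G11460) had a region in both Col-0 sets and in neither ein2 set. In Col-0 air it spanned 6962703 to 6963041 of chromosome 4 and had a fold of 2.44, exceeded by 99.9% of the set. In Col-0 ethylene it spanned 6962805 to 6963092 and had a fold of 3.92, exceeded by 44.7% of the set. The summits were 561 and 588 bp outside the gene. The Col-0 air region was thus at the very bottom of its set, while the ethylene region was near the middle of its own.

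Ethylene alone gave a region at CRK19 (AT4G23270), a member linked to cell death, and at CRK41 (AT4G00970). The CRK19 region spanned 12171287 to 12171454 of chromosome 4, only 168 bp. Its fold was 3.08, with the summit 392 bp inside the gene. It was the single summit inside a true cysteine-rich receptor kinase gene in any set. Its −log10 q of 10.9 was close to the minimum of its set, 10.8. The CRK41 region, at 417246 to 417458 with a fold of 3.77, lay 869 bp from the gene and was given to the neighbour AT4G00960. Neither gene had a region in ein2 ethylene.

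When the 2 relatives of calcium-dependent kinases were left out, a region was found at 6 and 4 of 38 CRK genes in the Col-0 air and ethylene sets and at 1 in each ein2 set. By the summit rule 3 and 2 of the 38 were given a region in Col-0 air and Col-0 ethylene, or 7.89% and 5.26%, beside 24.5% and 17.3% of all genes. In ein2 air and in ein2 ethylene it was 0 of 38, which allows a share of up to 7.89%, beside 11.2% and 15.2% of all genes. CRK genes with published roles that had no region in any set include CRK5, linked to cell death, CRK13, whose raised expression increases resistance to bacteria, and CRK28 and CRK36, which act in immune signalling.

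RLP51 (AT4G18760), also known as SNC2, in which a gain-of-function mutation switches on immunity, had the region of highest fold of either family in both air sets. In Col-0 air it spanned 10309285 to 10309657 of chromosome 4. The fold there was 9.23, exceeded by 2.67% of the set. The fold was 6.30 in Col-0 ethylene, where 7.44% were stronger, 4.12 in ein2 air with 35.0%, and 2.85 in ein2 ethylene with 39.6%. The summit lay 150, 122, 154 and 142 bp inside the gene in these sets, so that all 4 fell within 32 bp of each other. In Col-0 ethylene the region was 635 bp wide, against 373, 281 and 282 bp in the other sets.

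RLP32 (AT3G05650), the receptor for a bacterial translation initiation factor, and its neighbour RLP33 (AT3G05660) had weaker regions that peaked inside the genes. The RLP32 region spanned 1645113 to 1645410 of chromosome 3 in the Col-0 air set, where its fold was 3.88 and its summit 422 bp inside the gene. The fold was 4.27 with ethylene in Col-0, with the summit 407 bp inside. In ein2 it was 2.65 in air and 2.14 with ethylene, with summits 399 and 412 bp inside. The position was therefore stable across the sets. The RLP33 region was found in Col-0 air, at 1648974 to 1649242 with a fold of 3.21, and in ein2 ethylene, with a fold of 2.34. In Col-0 air 87.7% and in ein2 ethylene 75.9% of the regions were stronger, so this was a region of the lower part of each set.

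RLP52 (AT5G25910), which acts in resistance to powdery mildew, had a region in all 4 sets but not at the same place. In Col-0 air the region spanned 9038669 to 9039023 of chromosome 5. Its fold was 2.94, with the summit 67 bp inside the gene. In ein2 air the summit was 10 bp inside, with a fold of 2.78. Both air sets thus had 1 region, at the gene edge. Col-0 ethylene had that edge region, with a fold of 2.93, and a further one at 9039427 to 9039680 with a fold of 3.21 and the summit 731 bp inside the gene. In ein2 ethylene the only region had its summit 740 bp inside, with a fold of 1.98. The inner region was therefore listed in both ethylene sets and in neither air set. All 5 regions ranked low by fold, with at least 74.2% of the regions of the set above them. The −log10 q of the edge region was 20.9 and 15.8 in the Col-0 air and ethylene sets and 16 in ein2 air. The ein2 ethylene set, which lacked it, had the lowest minimum, 6.57. For the inner region the −log10 q was 12.3 with ethylene in Col-0 and 7.16 with ethylene in ein2. The air sets, which lacked it, had minima of 13.4 for Col-0 and 10.9 for ein2. Whether the sets' different minima shaped this pattern was not tested.

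RLP57 (AT5G65830) had a region in both Col-0 sets, with folds of 4.31 in air and 3.34 in ethylene and summits 207 and 249 bp inside the gene, at 26343145 to 26343581 of chromosome 5 in air. RLP45 (AT3G53240) had one in Col-0 air alone, at 19733638 to 19733906 of chromosome 3. That region had a fold of 3.5 and its summit 42 bp inside the gene. Neither had a region in ein2. RLP4 (AT1G28340) had a region near the border of its flank in 3 sets, at 9938780 to 9939090 of chromosome 1 in Col-0 air. Its fold was 5.63 there, 3.06 with ethylene in Col-0 and 3.72 with ethylene in ein2. Those summits were 1000, 1043 and 1008 bp from the gene.

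The remaining RLP counts rested mostly on neighbours. RLP2 (AT1G17240) had a region in all 4 sets, with folds of 6.30 and 6.23 in Col-0 without and with ethylene and of 4.04 and 3.57 in ein2. The Col-0 air region spanned 5895720 to 5896032 of chromosome 1. The summit lay in each set inside RTFL11, a gene of a small-peptide family. RLP39 (AT3G24900) had a wide region at the edge of its flank in 3 sets, at 9102851 to 9103850 of chromosome 3 in Col-0 air. It was 1000 bp wide there with a fold of 7.87, 984 bp with 6.73 in Col-0 ethylene, and 806 bp with 2.94 in ein2 ethylene. It was given to AT3G24929. In ein2 air a region of fold 6.12 was given to AT3G24929 as well, but its distance of 1018 bp from RLP39 was just outside the flank, whereas the others were 860, 889 and 979 bp away. The 3 genes from RLP39 to RLP41, in 13.9 kb, thus had 1 summit in their cluster in every set, and the missing count of RLP39 in ein2 air comes from the flank's width.

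RLP26 and RLP27 sit in a cluster of 5 RLP genes with ATP3, a gene for a mitochondrial ATP synthase subunit, and NSP2, a gene for a protein of glucosinolate breakdown, between them. RLP26 (AT2G33050) had the ATP3 region in both Col-0 sets, at 14020980 to 14021403 of chromosome 2 in air, with folds of 2.63 and 3.18. RLP27 (AT2G33060) had the NSP2 region, at 14028976 to 14029254 in Col-0 air, in all sets but Col-0 ethylene, with folds of 3.93, 3.34 and 2.45. A region of fold 3.38 at 14024921 to 14025106, in Col-0 air alone, which also counted for RLP26, was the only one of this cluster given to an RLP gene, RLP27, with its summit 479 bp outside it. RLP31 (AT3G05370) had a region next to ALY2 (AT3G05380) in Col-0 air and in ein2 ethylene, with folds of 5.31 and 2.51. In Col-0 air it spanned 1539281 to 1539641 of chromosome 3. RLP16 (AT1G74200) had one given to GDPD5 in both Col-0 sets, at 27909729 to 27910284 of chromosome 1 in air, with folds of 3.47 and 4.82. RLP9 (AT1G58190) had one inside BCA6, a carbonic anhydrase gene, in Col-0 ethylene alone, at 21539800 to 21540141 of chromosome 1, where the fold was 3.28.

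Several RLP genes with well-studied roles had no region in any set. They include RLP1, RLP3 (also RFO2, for resistance to Fusarium), RLP23 and RLP30, receptors that detect bacterial or fungal molecules, RLP42, which detects fungal polygalacturonases, and RLP44, which links the cell wall to brassinosteroid signalling. Outside the symbol rule, TMM, an RLP of stomatal patterning, had a region in Col-0 air alone with a fold of 2.85, and CLV2, an RLP of the shoot meristem, had none. Another 5 genes carry a CRK name only among their synonyms. RKF2, EP1, EMB1290 and ARCK1 had no region, while CCR4 (AT5G47850), a crinkly4-related kinase gene, had one in all sets but ein2 ethylene, with folds of 3.89, 3.69 and 3.06. The pseudogenes RLP18 and RLP49 had none.

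As a set, the regions at members were of ordinary strength and width. The 14 distinct regions at RLP genes in Col-0 air had a median fold of 3.90 and ranged from 2.63 to 9.23, where the median of the whole set was 4.34. The 5 distinct regions at CRK genes in Col-0 air had a median fold of 4.30, with a range from 2.44 to 8.33. Median widths there were 334 bp for RLP and 339 bp for CRK genes, beside 323 bp for all regions. Of the 14 RLP regions in Col-0 air 8 were given to an RLP gene, 6 with the summit inside it, and 5 of the 8 summits lay within 300 bp of an edge of that gene.

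Between conditions, the RLP genes followed the genome and the CRK genes were too few to describe by shares. Of the 13 RLP genes found in Col-0 air, 9 (69.2%) also had one in Col-0 ethylene, beside 66.7% of all genes. In ein2 air 5 of the 13 did (38.5%), beside 47.0%, and in ein2 ethylene 9 (69.2%), beside 57.9%. All 5 RLP genes of ein2 air and all 9 of ein2 ethylene had a region in Col-0 air. Of the 7 CRK genes of Col-0 air, CRK24 and CRK30 had one in Col-0 ethylene, CRK24 and CRK3 (AT2G46700) in ein2 air, and CRK24 in ein2 ethylene. With equal numbers of regions from every set, the CRK counts were 1 and 2 in the Col-0 air and ethylene sets and 2 and 1 in those of ein2. The order of the sets was thus not kept. Of all genes 17.5%, 17.7%, 16.9% and 16.5% then had a region, in the same order of sets. The RLP counts were then 6, 7, 5 and 5. Without CRK24, whose region peaked in its neighbour, no CRK gene had a region in ein2 ethylene.

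Tandem and single genes were compared because both families occur mostly in clusters. A cluster was 2 or more members of a family with at most 2 other protein-coding genes between neighbours. The CRK genes formed 5 clusters with 32 members and 8 single genes, and the RLP genes 11 clusters with 28 members and 24 single genes. In Col-0 air 6 of 32 tandem CRK genes (18.8%) and 1 of 8 single CRK genes (12.5%) had a region, the single one being the calcium-dependent-kinase relative. The counts for RLP were 8 of 28 tandem genes (28.6%) and 5 of 24 single genes (20.8%). The order was the other way in Col-0 ethylene, with 9.38% of tandem and 12.5% of single CRK genes and 17.9% of tandem and 20.8% of single RLP genes. In ein2 air it was 3.12% and 12.5% for CRK and 10.7% and 8.33% for RLP, and in ein2 ethylene 3.12% and 0% for CRK and 21.4% and 12.5% for RLP. The single CRK gene of ein2 air was again the calcium-dependent-kinase relative. In any of the 4 sets, 7 tandem (21.9%) and 2 single CRK genes (25%) had a region. For RLP it was 8 tandem (28.6%) and 6 single genes (25%), beside 39.7% of all genes. Tandem and single genes thus had no fixed order. The small difference in Col-0 air also turned round for RLP when regions had to overlap the gene itself. For CRK it did so only through the calcium-dependent-kinase relative, the 1 single gene counted. By that rule 2 of 32 tandem (6.25%) and 1 of 8 single (12.5%) CRK genes had a Col-0 air region. So did 2 of 28 tandem (7.14%) and 4 of 24 single (16.7%) RLP genes, beside 25.2% of all genes.

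Other gene families, chosen after seeing the data, had a lower share in tandem copies. Of 229 cytochrome P450 (CYP) genes, which are also rich in tandem copies, 18.2% of 137 tandem and 28.3% of 92 single genes had a Col-0 air region. Over all other symbols that share their letters with another gene, CYP included, 22.4% of 1038 tandem and 41.9% of 6612 single genes did. After weighting by length, the shares of all genes were 38.3% and 39.3% for CYP tandem and single genes. They were 36.1% and 38.7% for these other symbols. By count, single CRK and RLP genes lay below single genes of other families, with 1 of 8 and 5 of 24. Tandem CRK genes, at 18.8%, were close to tandem CYP genes and below the other tandem families together. Tandem RLP genes, at 28.6%, lay above both, so a low share was not particular to tandem CRK and RLP genes. Of 67 WRKY genes, which encode transcription factors of defence and occur mostly apart, 43.3% had a Col-0 air region, beside 37.2% after length weighting. Of 7 PDLP genes, which encode plasmodesmal proteins with the same kind of cysteine-rich domain as CRKs, 2 had one in Col-0 air (28.6%, beside 39.6% after weighting by length), 3 in Col-0 ethylene (42.9%, beside 30%), 0 in ein2 air and 1 in ein2 ethylene.

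**Figure D3:**
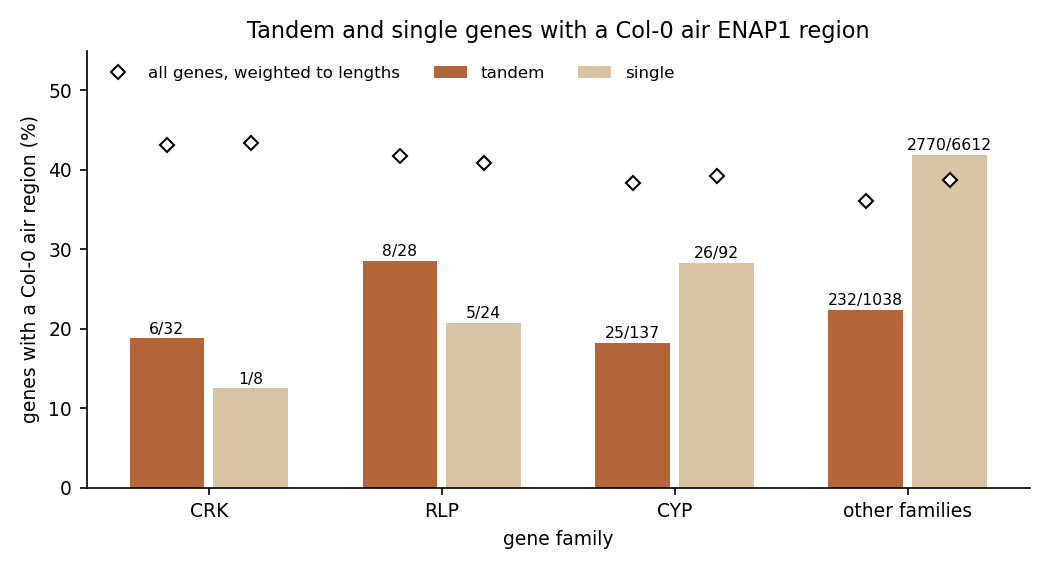
Percent of tandem (brown) and single (beige) genes with a Col-0 air region within 1000 bp, for CRK, RLP and CYP genes and for all other symbol families together, with counts above the bars and diamonds for the share of all genes weighted to each group's lengths. Tandem bars are lower than single bars for CYP and other families (18.2% against 28.3%, 22.4% against 41.9%). They are higher for CRK and RLP in this set, an order that turns round in Col-0 ethylene, and single CRK and RLP genes lie under their diamonds.

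The largest cluster, CRK5 to CRK24, holds 18 CRK genes by symbol in 74.2 kb of chromosome 4, and EP1 and EMB1290, CRK genes by synonym alone. It had 1 summit inside its span in Col-0 air, between CRK11 and CRK12, and 1 in Col-0 ethylene, in CRK19. In ein2 air and ein2 ethylene there was none. That is 1.35 summits per 100 kb in both Col-0 sets, where the density from the first to the last gene of each chromosome was 6.59 and 4.31. It was 2.73 and 3.94 in the ein2 air and ethylene sets. The AT4G23330 region, present in all 4 sets, lay just beyond the border of the cluster.

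**Figure D4:**
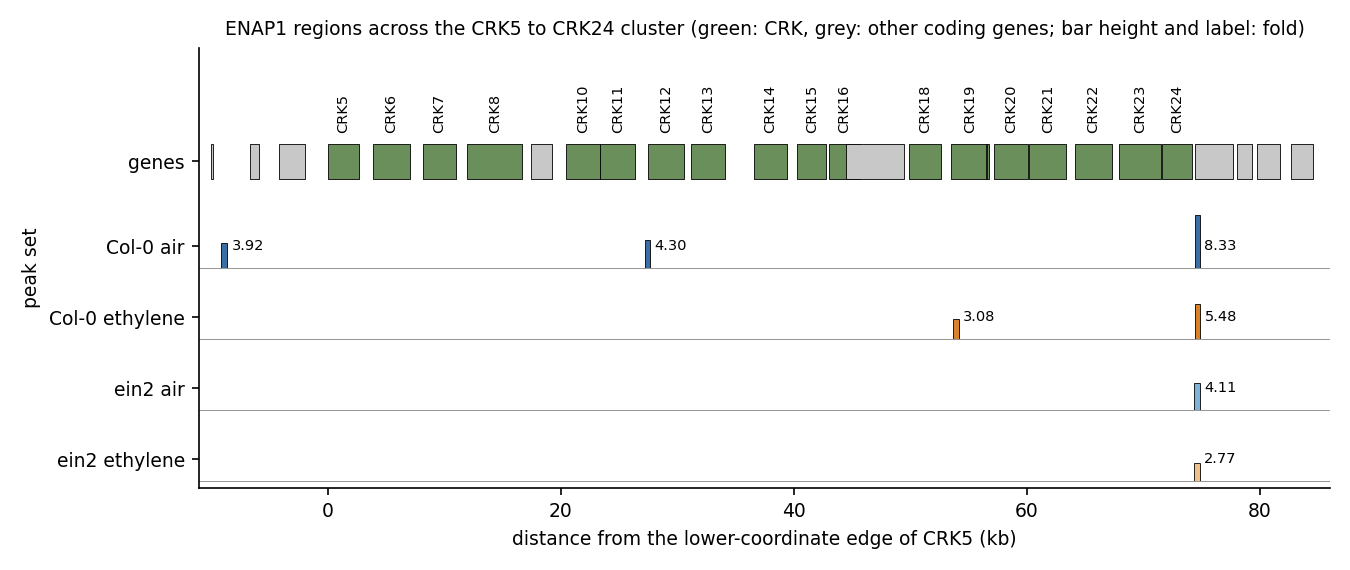
Protein-coding genes (top; CRK green, others grey) and ENAP1 regions in the 4 peak sets along the CRK5 to CRK24 cluster, in kb from the lower-coordinate edge of CRK5, with the fold written beside each region. Within the 74.2 kb there is 1 region in each Col-0 set, and the region just beyond CRK24 is present in all 4 sets. EP1 and EMB1290, with a CRK name only among their synonyms, are drawn grey.

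The other large CRK clusters held no summit. The 61.2 kb from CRK36 to CRK40, with 5 CRK genes, and the 26.3 kb from CRK30 to CRK34, with 5, had none in any set, the CRK30 regions lying beyond the outer edge of that cluster. The pair CRK28 and CRK29 had none either, whereas the pair CRK2 and CRK3 on chromosome 1, in 7.05 kb, held the 1 summit of Col-0 air already described, or 14.2 per 100 kb. Of the 7 other protein-coding genes inside CRK clusters, EP1 and EMB1290 carry a CRK name among their synonyms. These 7, LCR11 and RALFL28 among them, were given no region in any set. Inside RLP clusters 5 of 10 other genes were given one in any set, beside 27.9% of all genes by the same rule, and both counts are too small to set the families apart. Between RLP20 and RLP21, neither of which had a region, AT2G25460 was given 3 regions in Col-0 air, the strongest with a fold of 5.07, and AT2G25450 was given 1, with a fold of 4.16. The RLP13 to RLP16 cluster, with 4 genes in 17.9 kb, held no summit in any set.

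Genes bordering the members were also counted by the summit rule. Members were taken by symbol, so genes with a CRK name only among their synonyms can count as neighbours here. Of 33 other protein-coding genes next to a CRK gene, 4 (12.1%) were given a Col-0 air region by its summit, beside 24.5% of all genes and 22.9% after weighting by length. Of 79 next to an RLP gene, 20 (25.3%) were, beside 25.2% after weighting. By the same rule 4 CRK genes (10.0%) and 8 RLP genes (15.4%) were given one, where weighting by their own lengths gave 32.1% and 30.3%. Around RLP genes, the neighbours were thus at the level of all genes and the RLP genes below it. Around CRK genes both were low in Col-0 air, while in ein2 ethylene 5 of the 33 neighbours (15.2%) were given a region, beside 15.2% of all genes, and 0 of 40 CRK genes, which allows a share of up to 7.5%.

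The distance to the nearest region separated the families. The median distance from a CRK gene to the nearest Col-0 air region was 8.86 kb, against 3.07 kb for RLP genes and 2.87 kb for all protein-coding genes. With ethylene these medians were 14.3, 4.41 and 5.06 kb. In ein2 air they were 30.3, 11.3 and 9.32 kb, and in ein2 ethylene 30.2, 6.33 and 6.16 kb. CRK genes were thus farther from regions than the average gene in every set, and RLP genes were not in Col-0 ethylene. More than 10000 bp from a region in every set lay 14 of 40 CRK genes (35.0%) and 7 of 52 RLP genes (13.5%), beside 16.3% of all genes. All 5 genes from CRK36 to CRK40 are among the 14. In ein2 air the farthest CRK gene, CRK36, was 141 kb from a region and the farthest RLP gene, RLP46, 340 kb. RLP19 was the most isolated RLP gene in Col-0 air, at 75.5 kb. Cluster members share their surroundings, so these distances are not independent.

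**Figure D5:**
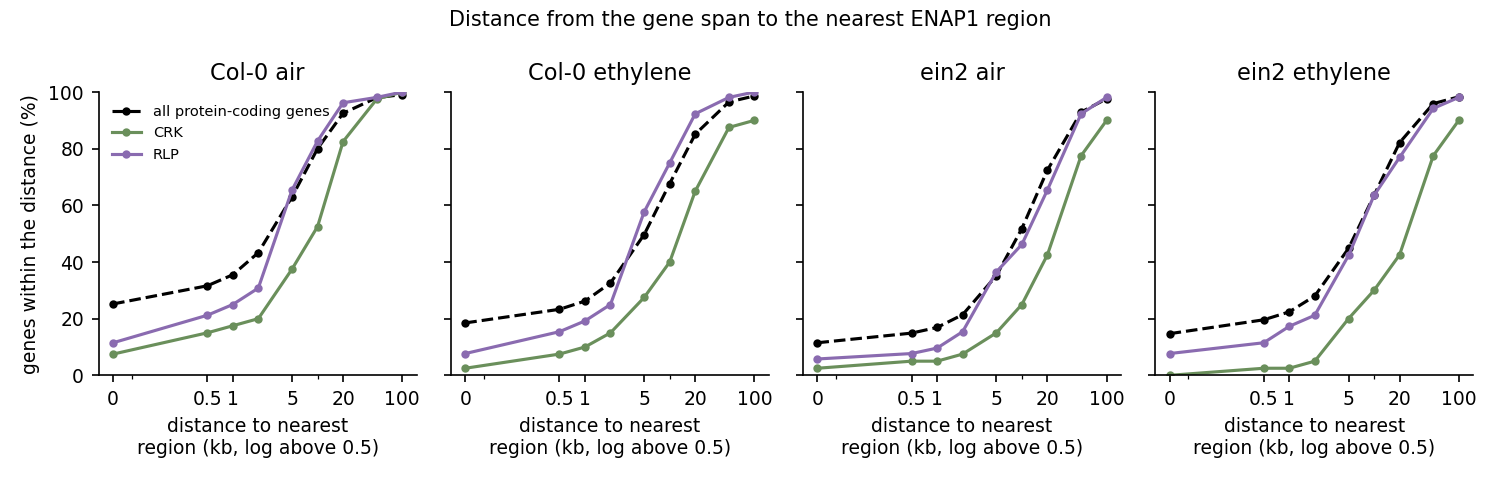
Cumulative percent of genes (y axis) within a given distance of the nearest ENAP1 region (x axis, kb, linear to 0.5 and logarithmic above) in the 4 peak sets, for CRK genes (green), RLP genes (purple) and all protein-coding genes (black, dashed). The CRK curve lies lowest at 5 kb in each set, while the RLP curve meets or crosses the dashed one between 2 and 10 kb.

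Other genes of surface immunity were described beside the members. The list of 35 genes, for receptors of other families, co-receptors and their signalling partners, was written from general knowledge, and all 35 were in the gene table. In Col-0 air 24 of them (68.6%) had a region, beside 43.5% of all genes after weighting by length. In Col-0 ethylene 11 did (31.4%, beside 31.5%), in ein2 air 12 (34.3%, beside 21.1%) and in ein2 ethylene 16 (45.7%, beside 27.9%). Of the 24 genes of Col-0 air, 10 (41.7%) had a region in Col-0 ethylene, beside 66.7% of all genes, and 15 (62.5%) had one in ein2 ethylene, beside 57.9%.

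SOBIR1, the kinase through which RLPs signal, had a region in all 4 sets, with folds of 6.04 and 4.82 in Col-0 without and with ethylene and of 3.67 and 2.95 in ein2. SERK1, a relative of BAK1, RBOHF, an oxidase that makes reactive oxygen, and ADR1-L2, a helper of immune receptors, were also found in all 4 sets. In Col-0 ethylene the ADR1-L2 region was given to another or no gene. With SOBIR1 these are 4 of 35 genes (11.4%), beside 15.9% of all genes after weighting by length, so the list was not above all genes here. RBOHF had the highest fold of the list, 8.96 in Col-0 air. BAK1 itself had a region in Col-0 air, ein2 air and ein2 ethylene, with folds of 5.03, 4.05 and 3.15, and none in Col-0 ethylene. The same pattern was found at the chitin receptor gene CERK1, the receptor kinase gene FER, the cytoplasmic kinase gene BIK1 and the calcium-dependent kinase gene CPK28. By their summits, the CPK28 regions were given to another or no gene. This pattern held at 5 of the 35 genes, beside 1.41% of all genes, and was picked after the values were seen. RBOHD, the main oxidase of the immune response, had regions at a fold of 4.03 in Col-0 air and 2.24 in ein2 ethylene.

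Found in 1 set alone were SERK4, the receptor gene EFR and the peptide receptor gene PEPR1, in Col-0 air, with folds of 3.03, 5.05 and 5.15. PAD4, a regulator of salicylic acid defence, was found in Col-0 ethylene alone, with a fold of 3.43, and BIR1, a negative regulator of immunity, in ein2 ethylene alone, with 2.59. The flagellin receptor gene FLS2 and EDS1, the partner of PAD4, had none. Over any set the list had a region at 74.3% of its genes, beside 47.7% of all genes after weighting by length, although in Col-0 ethylene it was at the level of all genes. The CRK and RLP shares over any set, 22.5% and 26.9%, stand beside weighted shares of 47.4% and 45.6%.

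CRK and RLP clusters hold related copies, and how reads that map to several places were treated is not stated in what was used here, so a missing region inside a cluster is uncertain. Its part in these counts was not tested. In both lines the library numbers before the vs in the peak set names also differ in style between air and ethylene, while those after it do not. If that marks separate handling, it cannot be told apart from the treatment.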

How the data were processed

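ENAP1 was immunoprecipitated in 8 samples, with 8 input samples, in 8 groups of 2. Per the submitters' processing notes, BWA, MACS2 2.1.0.20150603 and the TAIR10 build were used, with no BWA version, read filter or rule of peak selection stated in what was used here. Per the labels, both replicates of a condition share 1 peak file, and whether reads were pooled is not given. For each peak the deposited files hold the positions, a score, the fold, a ratio over the local background by the authors' peak caller, and a −log10 q value. Peak numbers in the deposited files run to 18877, 12046, 8191 and 10236, of which 41.6%, 42.6%, 39.7% and 45.9% are held, so they are subsets of longer lists. Of 6 files 2, with 14 value columns, match no sample label and were not used, and with the −log10 p columns of the others 18 value columns were not used. Starts are 1-based.

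Genes, symbols and neighbours came from RefSeq's table of TAIR10.1, whose coordinates are not printed because its name differs from the files' build. As a check, at least 71.3% of summits lay within 300 bp of a gene edge, and at most 28.3% after shifts of 2000 to 20000 bp. The table has no strand, exons or sequence. The planned search of protein and promoter letters was therefore not run and no sequence is printed. Organelle genes (118) were left out. Overlap was at least 1 bp. Overlap code (Python 3.11.15) was tested on simulated data, with 200 of 200 regions placed rightly. Shares of all genes were weighted over 10 classes of gene length in place of drawing random genes. Members, lists and rules were chosen with earlier results of these data known. All members with a region were named. Full values went, per family, to those in all 4 sets, the 5 of highest fold and those not in Col-0 air alone; RLP45, outside this rule, was added after its values were seen. Pathway genes were named if in all 4 sets or in 1 alone, and those with BAK1's pattern, RBOHD, FLS2 and EDS1 were chosen after their values were seen. Members without a region, neighbours, symbol families and distances were added after seeing the data.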

Additional observations from a re-analysis of the deposited data

How the results depend on the processing

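In all 68 family counts under alternatives, the family's share stayed below that of all genes treated the same way, weighted by length or not. Of 100 alternative values, 67 stayed within 1.5 times the reported one; the rest follow, and the cause was not tested. With no flank, the counts, in the order Col-0 air, Col-0 ethylene, ein2 air, ein2 ethylene, were 3, 1, 1 and 0 CRK genes and 6, 4, 3 and 4 RLP genes. Tandem CRK genes were then 2 in Col-0 air and 3 in any set, single CRK genes 1 in any set, and tandem RLP genes 2 in both cases. With each region given to 1 gene, the counts were 4, 2, 1 and 0 CRK genes and 8, 4, 3 and 4 RLP genes. With 3252 regions from every set, Col-0 air had 1 CRK and 6 RLP genes, Col-0 ethylene 2 CRK genes and ein2 ethylene 5 RLP genes. At a common −log10 q of 13.4, RLP genes were 3 in ein2 air and 4 in ein2 ethylene. At a fold of at least 3 they were 3 and 2, and ein2 ethylene had 0 CRK genes. A flank of 2000 bp gave 2 CRK genes in ein2 ethylene and 8 RLP genes in ein2 air. Leaving out the calcium-dependent-kinase relatives, chosen after seeing the data, left 1 CRK gene in ein2 air. Depth is unknown. No paired analysis was possible because each condition has 1 peak set for both replicates, which also prevents leaving out a replicate.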
